A study of Mus musculus with 16 samples.

Results

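The MYC network is a set of transcription factors that share the partner MAX and the DNA sequence CACGTG, the E-box. It was followed here through 7 mouse genes: Myc and Mycn, which encode the activating MYC proteins, Max, which encodes their obligate partner, and Mxd1, Mxi1, Mxd4 and Mnt, which encode antagonists. The members were all array probe sets annotated with the single gene symbol of 1 of these genes, which gave 14 of 20380 probe sets with a single symbol, and 7 of 12393 genes. Messenger RNA was measured on Affymetrix M430A_2 mouse arrays in 3 groups. The iMet group holds 6 cutaneous melanomas of genotype Tyr-rtTA;Tet-Met;Ink4a/Arf-/-, the iHRAS* group 6 melanomas of genotype Tyr-rtTA;Tet-HRASV12G;Ink4a/Arf-/- (labelled iRas in the sample titles), and the third group 4 samples labelled melanocytes, with no disease and no genotype given. In both models a tyrosinase-driven reverse tetracycline transactivator switches on the oncogene, and both lack Ink4a/Arf. By genotype the tumours thus differ in the oncogene, while the melanocytes differ from them in more than that. The labels used here state neither the animals' age nor the doxycycline schedule. The sample labels speak of isolated melanoma cells and the design text of RNA from melanomas.

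MYC and N-MYC form heterodimers with MAX that bind E-boxes and raise transcription of genes for ribosome production, nucleotide and polyamine synthesis and entry into the cell cycle. MXD proteins and MNT compete for MAX at the same sites and repress through SIN3 and histone deacetylases. RAS signalling is known to prolong the life of MYC protein through phosphorylation, and MET, a receptor tyrosine kinase, signals in part through RAS. The arrays measured RNA and give no protein level.

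Promoter sequence is shown for the member with the widest spread between groups, Mycn, and for the 3 members whose promoter holds the E-box that the network itself binds. The windows are RefSeq sequences of the GRCm38.p6 assembly, from 250 bases before to 50 bases after the annotated start, written 5′ to 3′ on the gene's strand. Of the 7 members, 6 had a window, and Myc was named only. Capitals mark CACGTG in Max, Mxd4 and Mnt. In Mycn they mark TTTGGCGC or TTTCGCGC, the core of sites known for E2F factors, a pair of motifs chosen after the Mycn sequence was seen. Both strands were searched, and overlapping matches were counted.
Mycn (chr12:12941787-12942086, minus strand): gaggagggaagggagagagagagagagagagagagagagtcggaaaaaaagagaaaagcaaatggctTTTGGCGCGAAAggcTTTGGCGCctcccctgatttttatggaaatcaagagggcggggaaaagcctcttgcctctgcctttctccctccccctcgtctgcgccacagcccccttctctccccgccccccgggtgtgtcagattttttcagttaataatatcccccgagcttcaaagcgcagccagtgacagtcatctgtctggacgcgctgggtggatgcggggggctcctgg
Max (chr12:76962199-76962498, minus strand): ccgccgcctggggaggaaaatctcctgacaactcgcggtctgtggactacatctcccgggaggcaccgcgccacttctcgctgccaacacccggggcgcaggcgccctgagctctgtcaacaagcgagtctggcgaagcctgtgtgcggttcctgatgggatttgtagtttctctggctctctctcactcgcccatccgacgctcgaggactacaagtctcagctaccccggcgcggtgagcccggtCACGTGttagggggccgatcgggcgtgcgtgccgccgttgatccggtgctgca
Mxd4 (chr5:34187661-34187960, minus strand): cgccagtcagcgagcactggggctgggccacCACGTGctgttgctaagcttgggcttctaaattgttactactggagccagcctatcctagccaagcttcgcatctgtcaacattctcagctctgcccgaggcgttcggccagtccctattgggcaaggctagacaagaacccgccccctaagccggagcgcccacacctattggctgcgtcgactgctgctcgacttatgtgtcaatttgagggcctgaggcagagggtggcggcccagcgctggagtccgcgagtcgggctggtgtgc
Mnt (chr11:74830674-74830973, plus strand): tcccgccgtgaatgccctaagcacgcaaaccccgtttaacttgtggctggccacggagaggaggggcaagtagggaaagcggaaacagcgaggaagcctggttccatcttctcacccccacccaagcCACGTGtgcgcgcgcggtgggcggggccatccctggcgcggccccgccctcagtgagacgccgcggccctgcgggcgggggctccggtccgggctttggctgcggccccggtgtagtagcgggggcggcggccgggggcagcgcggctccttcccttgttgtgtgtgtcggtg

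The Mycn window held no CACGTG and 3 matches of the E2F-type motif, beginning 183, 179 and 168 bases before the start, of which the first 2 overlap on opposite strands. The E-box began 3 bases before the start in Max, 219 bases before it in Mxd4 and 123 bases before it in Mnt. Distances are counted from the start used for each window, which for Max and Mnt lies inside the annotated gene interval. CACGTG was present in 3 of the 6 members with a window, against 7.15% of all 32851 windows and 8.09% of the 27025 genes that have one. The E2F-type motif was present in 0.813% of windows. Mxd1 and Mxi1 held neither. A match describes these letters and is not a measured binding site.

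The deposited values are log2 signals, and they were quantile-normalized between arrays before any comparison. Each gene was read from its brightest probe set on average. It was tested if that probe set exceeded log2 6.21, the 40th percentile of all signals, on at least 6 arrays between the tumour models or at least 4 arrays against melanocytes. Differences are given with the standard error (SE) or the 95% interval from limma. A gene was called where its p-value, adjusted by Benjamini and Hochberg over all genes tested, was under 0.05. Replicate arrays within a group correlated at 0.88 to 0.954 across genes, each read from its brightest probe set. No label states that each sample is a different mouse, and the p-values therefore rest on the spread among these samples, which may be partly technical.

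The melanocyte label was checked against 8 marker genes on the array. Mitf, Tyr, Tyrp1, Dct and Kit lay below log2 6.21 on all 4 arrays labelled melanocytes, whereas Sox10 (mean 9.66), Slc45a2 (7.08) and Pmel (6.70) lay above it. The basal keratinocyte genes Krt5 and Krt14, the brightest of 11 keratinocyte markers there, averaged 12.57 and 12.73 on the same arrays. Perp (mean 11.21), Dsp (10.43), Trp63 (9.12), Krt17 (9.01) and Krt10 (6.82) also lay above log2 6.21 on all 4. Krt15 ran from 2.38 to 11.13. Krt1 (mean 3.44), Cdh1 (3.77) and Epcam (1.63) lay below log2 6.21 on all 4. Among other cell types, the mean over 8 endothelial markers was 3.56 to 4.85 in the melanocyte arrays, 7.63 to 9.19 in iMet tumours and 6.56 to 7.68 in iHRAS* tumours, and that over 8 macrophage markers was 4.47 to 5.07, 10.24 to 11.05 and 8.64 to 10.5. Mean keratinocyte marker signal over 11 genes was 6.39 to 9.17 in the melanocyte arrays, 4.37 to 9.12 in iMet and 8.72 to 10.78 in iHRAS* tumours. In such bulk samples, fewer cells of a type and less RNA per cell cannot be told apart. The bioB hybridisation spike-in averaged 7.75 on the iHRAS* arrays, 8.77 on the iMet arrays and 8.68 on the melanocyte arrays as deposited. It ran from 7.464 to 8.115 on the iHRAS* arrays and from 8.482 to 9.032 on the iMet arrays, without overlap. This difference between arrays follows the tumour model, so it and the oncogene cannot be told apart.

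Between the tumour models, Myc was 1.57-fold higher in iMet than in iHRAS* tumours. Mycn was called higher too, but it passed the detection filter on exactly 6 arrays, 5 of them iMet, and its adjusted p was 0.0612 without the filter. Neither the partner nor any antagonist that could be tested was called. Of 6 members tested, 2 were higher and 0 lower, where 20.9% of all 8058 genes tested were called and 11.2% were called higher. The median difference was 0.01 over the members and 0.03 over all genes tested. No member had groups whose ranges did not overlap, against 10.7% of all genes.

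**Figure D1:**
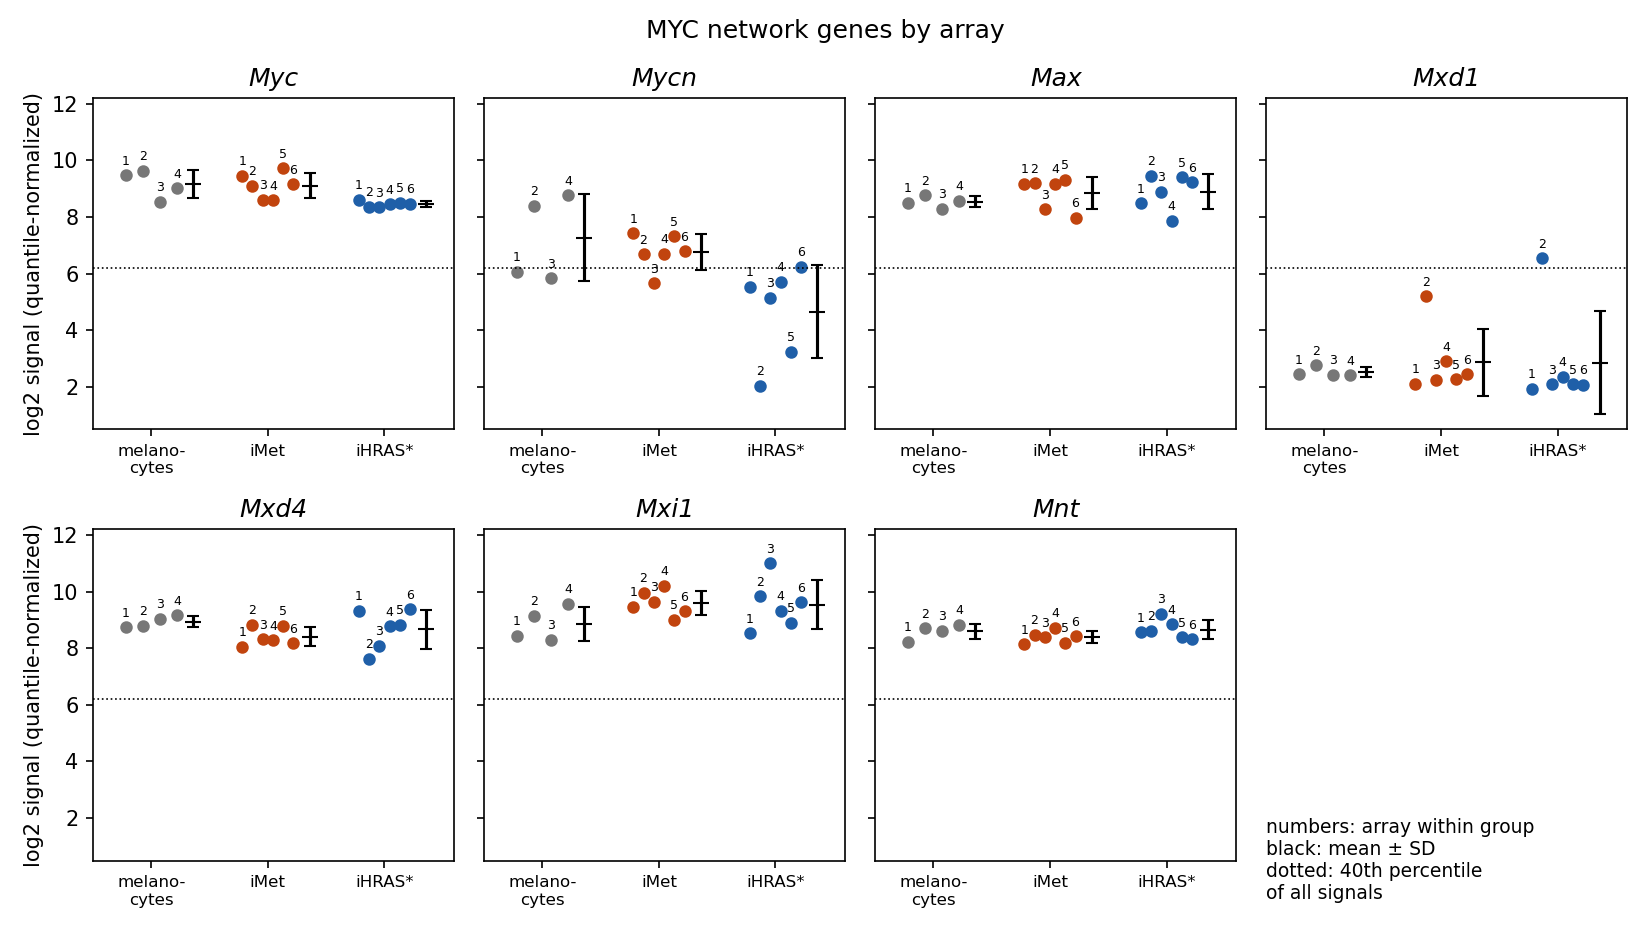
Log2 signal (y axis) of the representative probe set of each member on every array, by group (x axis); numbers give the array within its group, black marks the mean ± SD, and the dotted line is the 40th percentile of all signals. Myc runs from 8.35 to 8.60 in the 6 iHRAS* tumours after quantile normalization (7.90 to 8.62 as deposited), Mycn straddles the dotted line, and Mxd1 lies below it except on iHRAS* array 2.

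Myc (probe set 1424942_a_at; chromosome 15, 61985341 to 61990361, GRCm38.p6), whose product drives growth and division in many tissues, had a signal of 8.59 at the lowest, 9.13 at the median and 9.72 at the highest in the 6 iMet tumours. In the 6 iHRAS* tumours the lowest, median and highest values were 8.35, 8.46 and 8.60. The lowest iMet values lay at the top of the iHRAS* range, and the others lay above it. The mean was 9.11 ± 0.45 (SD, n = 6) against 8.46 ± 0.095 (SD, n = 6), a 1.57-fold difference (log2 0.65, SE 0.18, limma adjusted p = 0.0245). The iHRAS* SD depends on the scaling. As deposited, the iHRAS* values ran from 7.90 to 8.62 (8.32 ± 0.288, SD, n = 6) and the iMet values from 8.71 to 9.85 (9.20 ± 0.448, SD, n = 6). These deposited ranges did not overlap, but the deposited values of all genes tested were shifted too. Their median difference was 0.231, and 80.1% of calls were higher in iMet. The share of all genes without overlap was counted only after normalization, at 10.7%. The call was lost without iMet array 1 (log2 0.58, adjusted p = 0.0577), and the difference ran from 0.53 to 0.75 as each array was left out.

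Mycn (probe set 1417155_at; chromosome 12, 12936093 to 12941836), a MYC paralogue best known from embryonic development and neural crest tumours, had iMet values of 5.65, 6.75 and 7.42 at the lowest, median and highest. Its iHRAS* values were 2.05, 5.34 and 6.24. The groups overlapped between 5.65 and 6.24, and Mycn exceeded the detection limit on 5 of 6 iMet arrays and 1 of 6 iHRAS* arrays. The fitted difference was 4.32-fold (log2 2.11, SE 0.65, adjusted p = 0.0361). Because most iHRAS* values lie under the limit, the fold is poorly measured. The call was lost in 6 of the 12 fits that left out 1 array, namely iMet array 1, 2, 4, 5 or 6 or iHRAS* array 5, with adjusted p between 0.0584 and 0.0777 in those fits. Leaving out iHRAS* array 2, the lowest, kept the call but brought the difference to 1.59. Mycn's other probe sets were dimmer. The set 1425923_at averaged 5.13 in iMet and 3.56 in iHRAS* tumours (log2 1.56, adjusted p = 0.102 without the detection filter), and 1425922_a_at averaged 3.17 and 2.69 and exceeded the limit on no array.

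The keratinocyte marker mean was higher in iHRAS* tumours, with 0 of 10 tested markers called higher and 4 lower in iMet, while 7 of 8 endothelial markers were higher in iMet. Of all genes tested, 11.2% were higher and 9.70% lower in iMet, and 10.7% did not overlap between the models. Of 5 tested melanocyte markers 2 were lower in iMet, with no overlap between the groups: Sox10, at 6.90 against 10.16 (log2 −3.26, adjusted p = 9.34e-05), and Pmel, at 5.52 against 6.67. The mean over all 8 melanocyte markers was 5.36 to 6.04 in iMet and 5.95 to 7.81 in iHRAS* tumours, and Tyr, Tyrp1, Dct and Pmel lay below the limit on every iMet array. The part of any of these in the Myc and Mycn differences was not tested.

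Max (1423501_at), without which neither MYC nor MXD proteins bind DNA stably, averaged 8.85 ± 0.57 (SD, n = 6) in iMet and 8.89 ± 0.62 (SD, n = 6) in iHRAS* tumours. Its difference was −0.04 (95% interval −0.72 to 0.65, adjusted p = 0.946). Individual tumours ranged over more than a unit in both groups, from 7.97 to 9.32 in iMet and from 7.86 to 9.45 in iHRAS*. The interval leaves room for a difference of either sign.

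Among the antagonists, Mxi1, which encodes a MAX partner that represses MYC targets, had 2 probe sets above the limit on every array. The first, 1450376_at, averaged 9.60 ± 0.44 (SD, n = 6) in iMet and 9.53 ± 0.86 (SD, n = 6) in iHRAS* tumours (difference 0.06, 95% interval −0.72 to 0.85, adjusted p = 0.92). The second, 1425732_a_at, averaged 8.17 and 7.94. Mxd4, whose product is linked to differentiation, averaged 8.40 ± 0.33 (SD, n = 6) against 8.67 ± 0.69 (SD, n = 6) (difference −0.26, interval −0.89 to 0.36, adjusted p = 0.547). Mnt, the most widely expressed MYC antagonist, averaged 8.39 ± 0.21 (SD, n = 6) against 8.66 ± 0.34 (SD, n = 6) (difference −0.26, interval −0.61 to 0.085, adjusted p = 0.266). For these 3 genes and Max, the intervals include 0 and differences of up to 0.61 to 0.89 in at least 1 direction.

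Mxd1, a MYC antagonist induced as cells leave the cycle, could not be tested. Its only probe set, 1422002_at, lay near the bottom of the signal range in every group, with medians of 2.36 in iMet, 2.09 in iHRAS* and 2.43 in melanocyte arrays. Array 2 stood out in both tumour groups, at 5.20 in iMet and 6.54 in iHRAS*, and the latter was the only array above the limit.

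**Figure D2:**
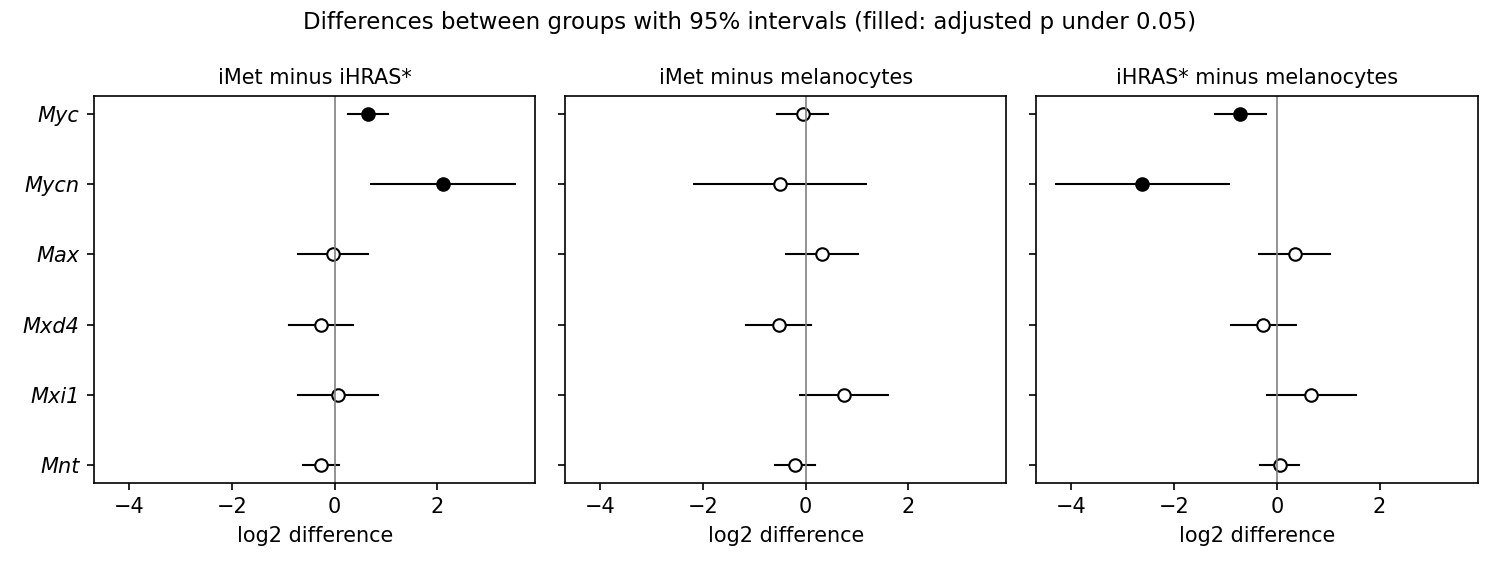
Log2 differences (x axis) with 95% intervals for the 6 tested members in the 3 comparisons; filled points have an adjusted p under 0.05. Myc and Mycn are the filled points, above 0 for iMet minus iHRAS* and below 0 for iHRAS* minus melanocytes.

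Against the melanocyte arrays, the iHRAS* tumours had lower Myc and Mycn and the iMet tumours had no member called. Both comparisons use the same 4 melanocyte arrays and, with the comparison of the models, the same tumour arrays, so the 3 are not independent. For iHRAS* tumours, 0 of 6 tested members were higher and 2 lower, where 39.3% of 8651 genes were called and 21.3% were called lower. A count of 2 in 6 is too small to set apart from either share. For iMet tumours 0 of 6 were called, where 35.1% of 8651 genes were called. No member separated the groups in either comparison, against 25.3% of genes for iHRAS* and 27.7% for iMet.

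Myc was 9.47, 9.63, 8.53 and 9.02 on melanocyte arrays 1 to 4, which spans nearly the whole iMet range. The third array fell inside the iHRAS* range and the other three above it. Myc was 1.63-fold lower in iHRAS* tumours than in these arrays (log2 −0.71, SE 0.23, adjusted p = 0.0253). The call was lost without melanocyte array 1 (log2 −0.61, adjusted p = 0.0819) or array 2 (log2 −0.55, adjusted p = 0.1). In iMet tumours the difference was −0.06 (95% interval −0.55 to 0.44, adjusted p = 0.864), and its sign turned to as high as 0.10 without single arrays.

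Mycn was 6.07, 8.40, 5.84 and 8.77 on melanocyte arrays 1 to 4, so that arrays 2 and 4 were bright and arrays 1 and 3 lay under the detection limit. Mycn was called lower in iHRAS* tumours (log2 −2.62, SE 0.79, adjusted p = 0.0162), with the size poorly measured because 5 of 6 iHRAS* arrays and 2 of 4 melanocyte arrays lay under the limit. The call was lost without array 2 (log2 −2.24, adjusted p = 0.0623) or array 4 (log2 −2.12, adjusted p = 0.0632), and without both the difference was −1.30 (adjusted p = 0.31). In iMet tumours the difference was −0.51 (95% interval −2.18 to 1.17, adjusted p = 0.642), and without arrays 2 and 4 it was 0.81 (adjusted p = 0.544). The same 4 arrays differed in other cell types' genes. Their keratinocyte marker means were 7.24, 9.17, 6.39 and 8.99, highest where Mycn was bright, and their fibroblast marker means were 9.92, 8.25, 10.80 and 7.55, lowest there. The part of these cells in the Mycn values was not tested.

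**Figure D3:**
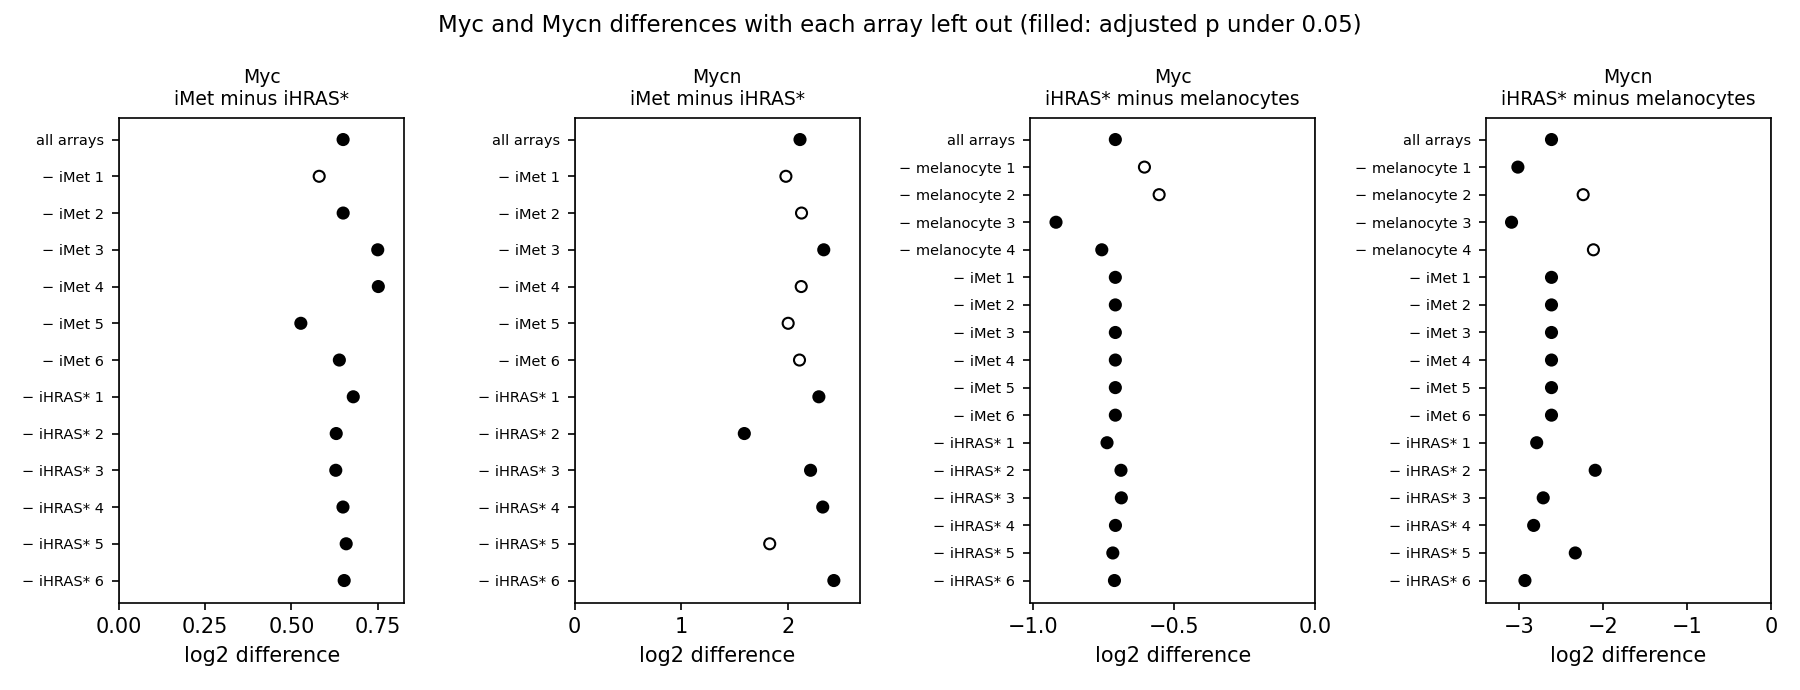
Log2 difference (x axis) of Myc and Mycn for iMet minus iHRAS* and iHRAS* minus melanocytes with all arrays and with each array left out in turn (y axis); filled points have an adjusted p under 0.05. The direction was kept in every fit shown, and the call was lost in 1 and 6 of 12 fits between the models and in 2 and 2 of 16 fits against melanocytes.

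The partner and antagonists were not called against melanocytes. Max averaged 8.53 ± 0.20 (SD, n = 4) in these arrays and differed by 0.32 in iMet (adjusted p = 0.475) and by 0.35 in iHRAS* tumours (adjusted p = 0.411). Mxi1 averaged 8.86 ± 0.60 (SD, n = 4) and differed by 0.74 in iMet (95% interval −0.12 to 1.60, adjusted p = 0.168) and by 0.67 in iHRAS* tumours (interval −0.18 to 1.53, adjusted p = 0.196). Mnt averaged 8.60 ± 0.26 (SD, n = 4) and differed by −0.21 (adjusted p = 0.387) and 0.06 (adjusted p = 0.828). Of all tested members Mnt had the smallest range of group means, 0.26, and Mycn the widest, 2.62.

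Mxd4 averaged 8.93 ± 0.20 (SD, n = 4) in melanocytes and differed by −0.53 in iMet (adjusted p = 0.179) and −0.26 in iHRAS* tumours (adjusted p = 0.501). Fitted on the iMet and melanocyte arrays alone, the iMet difference was called lower at an adjusted p of 0.0421. Mxd4 had 4 probe sets. In iHRAS* tumours against melanocytes all differed downward, at −0.26 (1434378_a_at), −0.20 (1434379_at), −0.56 (1422575_at) and −1.48 (1422574_at). The last was too dim to be tested, and its adjusted p was 0.0436 without the detection filter. Between the models their differences ran from −0.26 to 0.65, with none called. With every probe set fitted as its own feature, 3 of 9 member probe sets were lower in iHRAS* tumours, where 38.0% of all probe sets were called and 22.4% were called lower, and the third was the dim Mxd4 set 1422575_at (log2 −0.56, adjusted p = 0.0311). The same fits called 2 of 8 member probe sets higher between the models, where 19.3% were called and 10.9% were called higher, and 0 of 9 for iMet tumours against melanocytes, where 32.6% were.

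Other members of the wider network were Mycl, Mxd3, Mga, Mlx, Mlxip and Mlxipl, of which 4 were tested. None was called between the models or between iMet tumours and melanocytes. Mxd3, an atypical antagonist gene transcribed in dividing cells, was lower in iHRAS* tumours than in melanocytes by 2.02-fold (log2 −1.01, SE 0.24, adjusted p = 0.0042), and these groups did not overlap. Without melanocyte arrays 2 and 4 it was not called (log2 −0.78, adjusted p = 0.0725). Its mean was 6.88 in iMet and 6.24 in iHRAS* tumours, and the difference of 0.64 narrowly missed the threshold (adjusted p = 0.0539).

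MYC cofactors were next. Between the models 3 of 12 tested were higher in iMet and 1 lower, against 11.2% and 9.70% of all genes. Ruvbl1 (log2 0.81, SE 0.15, adjusted p = 0.0029) and Ruvbl2 (log2 0.63, SE 0.13, adjusted p = 0.00595), ATPases of the TIP60 complex that MYC recruits, were higher, as was Actl6a (log2 0.70, SE 0.13, adjusted p = 0.00388), an actin-like subunit of the same complex. Sin3b, a scaffold of the repressor complex used by MXD proteins, was lower in iMet tumours (log2 −0.72, SE 0.16, adjusted p = 0.00711) and lower there than in melanocytes too (log2 −0.69, adjusted p = 0.00393). These calls held as each array was left out. Against melanocytes, 0 of 12 cofactors were higher in either model; 4 were lower in iHRAS* tumours, among them Ruvbl1 (log2 −0.78) and Hdac2 (log2 −0.64), where 21.3% of all genes were lower, and 3 in iMet tumours, where 18.7% were. Without melanocyte arrays 2 and 4, the iHRAS* count was 0, with 1 cofactor higher, Ruvbl1 at an adjusted p of 0.0861 and Hdac2 at 0.106, and the iMet count was 1. In those fits 1117 of all 9054 genes tested were lower in iHRAS* tumours and 1085 in iMet tumours. Of the cofactors called lower with all arrays, Ruvbl2 in iHRAS* tumours lost its call without melanocyte array 2. Wdr5 did so in both models (in iHRAS* tumours also without iHRAS* array 5), and Hdac2 in iMet tumours lost its call without melanocyte array 4.

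Between the models 11.2% of all genes were higher in iMet and 9.70% lower. Among 10 regulators of MYC stability or activity, 4 were higher in iMet than in iHRAS* tumours and 0 lower. They were Skp2 (log2 1.39, SE 0.19, adjusted p = 0.000496), a ubiquitin ligase subunit that acts on MYC, the mitotic kinases Plk1 (log2 1.40, SE 0.23, adjusted p = 0.00143) and Aurka (log2 1.04, SE 0.23, adjusted p = 0.00728), which are known to stabilise MYC proteins, and Bin1 (log2 0.66, SE 0.15, adjusted p = 0.0077), a MYC-interacting adaptor. All 4 calls held in every fit that left out 1 array. Skp2, Plk1 and Aurka also follow cell division. Against melanocytes 4 were higher and 2 lower in iMet tumours, where 16.4% and 18.7% of all genes were, and 3 higher and 3 lower in iHRAS* tumours, where 18.1% and 21.3% were. The iMet lower count was 1 in 8 of 16 fits that left out 1 array. Without melanocyte arrays 2 and 4, the counts were 2 and 0 in iMet and 1 and 0 in iHRAS* tumours. Of all 9054 genes tested then, 1086 were higher and 1085 lower in iMet, and 1060 and 1117 in iHRAS* tumours. Scaling moved the regulator counts too. In iMet tumours they were 2 higher and 3 lower when centred on array medians, where 1176 and 2308 of 8651 genes were. In iHRAS* tumours they were 1 and 4 when centred, where 1336 and 2570 of 8651 genes were. As deposited they were 1 and 5 there, where 1341 and 2425 of 8687 genes were. Huwe1, a MYC ubiquitin ligase, was higher in iHRAS* tumours by 0.65 (adjusted p = 0.000412). Its difference in iMet tumours was 0.40 (adjusted p = 0.0112), but 0.15 (adjusted p = 0.39) centred on array medians and 0.29 (adjusted p = 0.175) with the mean of probe sets, and it missed the threshold without melanocyte arrays 2 and 4 (adjusted p = 0.0554). Gsk3b, the kinase that marks MYC for degradation, differed by −0.87 in iMet (adjusted p = 0.0107) and −0.75 in iHRAS* tumours (adjusted p = 0.0206). It was not called without melanocyte arrays 2 and 4 in either model (adjusted p = 0.0893 and 0.143), nor in iHRAS* tumours without melanocyte array 3 (adjusted p = 0.0504) or 4 (adjusted p = 0.0679).

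The 4 groups of known MYC targets held 57 tested genes. Between the models 15 of them (26.3%) were higher in iMet and 1 (1.75%) lower, against 11.2% and 9.70% of all genes, and their median difference was 0.20. With values as deposited, 23 were higher. On that scale 1800 of all 8171 genes tested were called higher, and the median difference of all genes was 0.231.

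Targets of the cell cycle moved most often, with 5 of 10 higher, 0 lower and a median of 0.61. The shares over all genes tested were 11.2% higher, 9.70% lower and 10.7% without overlap between the models. The replicative helicase genes Mcm5 (log2 1.19, SE 0.17, adjusted p = 0.000692), Mcm4 (log2 1.03, SE 0.13, adjusted p = 0.000306) and Mcm7 (log2 0.91, SE 0.15, adjusted p = 0.00138) were higher in iMet without overlap between the groups. So were Cks1b, a partner of cyclin-dependent kinases (log2 0.79, SE 0.13, adjusted p = 0.00138), and Cdca7 (log2 1.03, SE 0.23, adjusted p = 0.00832; 0.0632 with all 16 arrays in the fit). The E2F-type motif seen in Mycn lay in 4 of the 10 cell cycle targets with a promoter window, 2 of 15 translation and folding targets, 1 of 19 ribosome biogenesis targets and 0 of 15 metabolic targets, against 0.929% of all genes with a window. CACGTG lay in 1, 8, 4 and 4 of the same groups, against 8.09% of all genes.

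Metabolic targets were higher for 5 of 15 and lower for 0, where 11.2% of all genes tested were higher and 9.70% lower. The same shares belong to the ribosome biogenesis and translation counts below, which are small and were not tested against them. Ppat, the first committed enzyme of purine synthesis, was 1.83-fold higher (log2 0.87, SE 0.12, adjusted p = 0.000647), and Srm, spermidine synthase, 1.97-fold (log2 0.98, SE 0.24, adjusted p = 0.0126). Shmt2, a mitochondrial one-carbon enzyme, was higher by 0.49 (adjusted p = 0.0159), and Umps, of pyrimidine synthesis, by 0.46 (adjusted p = 0.029), though Umps lost its call in 5 of 12 fits that left out 1 array. Of ribosome biogenesis targets 3 of 21 were higher and 1 lower. The nucleolar genes Nop58 (log2 1.02, SE 0.21, adjusted p = 0.00594) and Nop16 (log2 0.65, SE 0.16, adjusted p = 0.012) were higher. Npm1 was higher by 0.38 (adjusted p = 0.0451), a call lost in 8 of 12 such fits, and Mybbp1a was lower by −0.51 (adjusted p = 0.0241), a call lost in 2. Translation and folding targets were higher for 2 of 11: Rcc1, the exchange factor of the RAN GTPase (log2 0.71, SE 0.13, adjusted p = 0.0035), and Eef1e1 (log2 0.58, adjusted p = 0.035), whose call was lost in 8 of 12 fits.

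Genes known to be repressed by MYC were lower in iMet for 3 of 8 and higher for 0, against 9.70% and 11.2% of all genes. Their median difference was −0.67. Cdkn1a, the cyclin-dependent kinase inhibitor p21, was 3.31-fold lower in iMet than in iHRAS* tumours (log2 −1.72, SE 0.25, adjusted p = 0.000756), and Cdkn2b, the inhibitor p15, whose gene lies beside the deleted Ink4a/Arf locus, was 2.58-fold lower (log2 −1.37, SE 0.26, adjusted p = 0.0033). The third, Gadd45a, was 1.75-fold lower (log2 −0.80, adjusted p = 0.0441), but lost its call in 10 of 12 fits that left out 1 array.

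**Figure D4:**
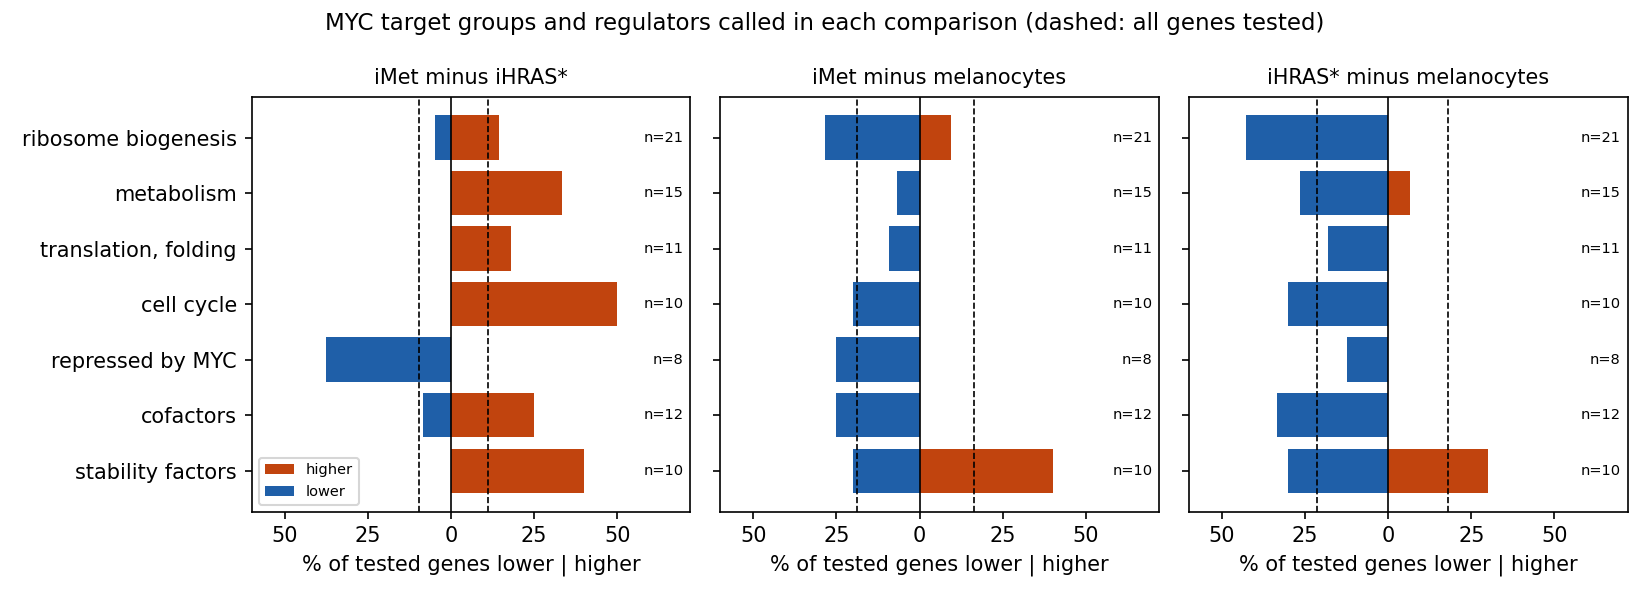
Percent of tested genes called lower (left) or higher (right) in each comparison (x axis) for 4 groups of MYC targets, genes repressed by MYC, cofactors and stability factors (y axis); n is the number tested, and dashed lines give the percent of all genes called in each direction. Cell cycle targets reach 5 of 10 higher in iMet minus iHRAS*, and ribosome biogenesis targets 9 of 21 lower in iHRAS* minus melanocytes.

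Against melanocytes, more of the same 57 targets were called lower than higher in iHRAS* tumours. Of them 18 (31.6%) were lower and 1 (1.75%) higher, against 21.3% and 18.1% of all genes, with a median of −0.32. The lower count was 10 without melanocyte arrays 2 and 4. The count of all genes called lower fell there too, to 1117 of 9054 from 1839 of 8651. Ribosome biogenesis targets contributed 9 of 21, led by Rrp12 (log2 −1.26, SE 0.24, adjusted p = 0.000836), Nop58 (log2 −1.11, SE 0.23, adjusted p = 0.00155), Nolc1 (log2 −0.84, SE 0.19, adjusted p = 0.00253) and Pa2g4 (log2 −0.78, SE 0.18, adjusted p = 0.00295). Metabolic targets were lower for 4 of 15, with Ppat 2.65-fold lower (log2 −1.41, SE 0.16, adjusted p = 1.61e-05), and Odc1, which starts polyamine synthesis, was the one target called higher (log2 0.66, adjusted p = 0.0485), a call lost in 12 of 16 fits that left out 1 array and in 8 of 14 other alternatives. In the cell cycle group 3 of 10 were lower, Ccnd2 (cyclin D2) by −2.54, Ccne1 (cyclin E1) by −1.24 and Mcm4 by −0.77.

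In iMet tumours 10 targets (17.5%) were lower than in melanocytes and 2 (3.51%) higher, against 18.7% and 16.4% of all genes. Rrp12 (log2 −1.18, adjusted p = 0.00143) and Ccnd2 (log2 −3.45, adjusted p = 0.000426) were lower, as in iHRAS* tumours. These counts turned with the melanocyte arrays. Without array 2, 6 were higher and 3 lower, where 1213 and 1263 of all 8814 genes tested were. Without arrays 2 and 4 the counts were 7 and 4, where 1086 and 1085 of 9054 genes were. Without melanocyte array 1 they were 1 and 3, where 1207 and 1233 of 8804 genes were. Without iMet array 2 the lower count was 6, where 1378 of 8628 genes were lower. Centred on array medians the target counts were 0 and 16, where 1176 and 2308 of 8651 genes were. Of the genes known to be repressed by MYC, Thbs1, which encodes the matrix protein thrombospondin 1, was 23.0-fold lower in iMet (log2 −4.53, adjusted p = 7.85e-06) and 12.6-fold lower in iHRAS* tumours (log2 −3.65, adjusted p = 5.92e-05) than in melanocytes.

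Finally, genes were ranked by how closely their array-to-array pattern followed each MYC family gene, as the root mean square difference of mean-centred log2 signals over all 16 arrays among 8650 other genes. For Myc the closest were Fastkd5 (0.247), Ruvbl1 (0.253), Mrps14 (0.261) and Smim11 (0.266), where the median gene had 0.602. Ruvbl1 was thus both a cofactor list member and the second most alike of all genes. For Mycn the closest were Irx2 (0.885), Gata3 (0.969), Metap1d (0.992) and Rfc4 (1.01), where the median gene had 1.67. Genes that vary little lie nearer to any pattern, and the arrays share groups, so these ranks describe likeness only.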

How the data were processed

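The authors deposited 1 table of log2 values for 22690 probe sets on 16 arrays; the step from probe signals to these values is not stated by the labels or the table. The log2 values ran from −4.07 to 14.53, and array medians from 6.56 to 7.28. Because the medians spread by 0.719, above a limit of 0.3, the 22626 probe sets other than 64 controls were quantile-normalized, which removes any whole-array difference. Only probe sets with a single gene symbol were used (691 had several, 1555 none). Differences were fitted with limma 3.58.1 (lmFit, eBayes, two-sided) in R 4.3.3, on the 12 tumour arrays for the models and on all 16 arrays against melanocytes, with every adjusted p from these fits. The fit was tested on simulated data. The members, gene lists and tests were chosen with earlier results of these data known. The text names all members and up to 4 genes of each list with the smallest p; Cdca7 and Odc1 were named after their values were seen. The number of arrays limits the precision.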

Additional observations from a re-analysis of the deposited data

Results flagged for a closer look

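Of 42 combinations of a member probe set and a group, 6 held 1 array far from the rest by Dixon's test, where chance gives about 1 in 20. Mxd1 had such an array in every group: 6.54 on iHRAS* array 2 (next 2.36), 5.20 on iMet array 2 (next 2.91) and 2.77 on melanocyte array 2 (next 2.44). The first lies above the detection limit and the others below it. A dim Mycn probe set, 1425923_at, was 4.45 on iHRAS* array 1 (next 3.49). The Mxd4 set 1422575_at was 6.58 on iMet array 6 (next 5.94), and the Mnt set 1418193_at was 1.17 on iHRAS* array 4 (next 3.52).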

How the results depend on the processing

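Myc and Mycn kept their direction in iMet minus iHRAS* and in iHRAS* minus melanocytes under every alternative that tested them, but not always their calls. Between the models, 2 members were called, and 1 without a detection filter, with the filter at the 60th percentile, with the mean of all probe sets, with the replicate number as a block (replicate block) or without iHRAS* arrays 3 and 4 (lowest deposited medians, an alternative chosen after seeing the data). The count was 0 without iHRAS* arrays 5 and 6, which stood apart in sex-linked genes in an earlier analysis. The block gave Mycn an adjusted p of 0.0608, and 1186 genes called in place of 1687 (2401 and 2832 against melanocytes for iMet and iHRAS*). The numbers gave no sign of pairing. Deviations of same-numbered iMet and iHRAS* arrays correlated at −0.225 to 0.107, and those of differently numbered arrays at −0.22 to 0.217. Leaving out single arrays gave 0 to 2 members and 1293 to 1797 genes. With 4 iHRAS* arrays Myc missed the threshold, at 0.67 (adjusted p = 0.0689) when 5 and 6 were omitted and 0.62 (adjusted p = 0.0749) when 3 and 4 were. For iHRAS* minus melanocytes, 2 members were called, 1 at the 60th percentile, with the mean of probe sets, on the 2 groups alone, or without iHRAS* arrays 5 and 6 or 3 and 4, and 0 without melanocyte arrays 2 and 4. Single arrays left out gave 0 to 2. With probe sets as features, 5256 of 13823 probe sets (38.0%) were called, against 3404 of 8651 genes (39.3%), so the unit changed and the share hardly did. The genes called were 2177 without melanocyte arrays 2 and 4, and 2740 to 3560 as single arrays were left out. For iMet minus melanocytes, 0 members became 1 (Mxd4) on the 2 groups alone; genes called ran from 2440 to 3219 as single arrays were left out, around 3040. At the 60th percentile, with the mean of probe sets, and on the iHRAS* and melanocyte arrays alone, Mycn passed no filter and was not tested, so the counts of 1 there are not lost Mycn calls.

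Signs of uncalled differences turned for Max between the models (0.23 as deposited, 0.0233 centred on array medians, 0.18 without iHRAS* arrays 5 and 6; −0.24 to 0.14 as single arrays were left out), Mxi1 (−0.0730 without arrays 5 and 6; −0.14 to 0.36), Mxd4 (0.0891) and Mnt (0.0514) with the mean of probe sets. For iMet minus melanocytes, Myc was 0.10 and Mycn 0.81 without melanocyte arrays 2 and 4, and Myc ran from −0.27 to 0.10 as single arrays were left out. For iHRAS* minus melanocytes, Mnt was −0.13 as deposited, −0.15 centred, −0.47 with the mean of probe sets, −0.13 without iHRAS* arrays 3 and 4, −0.12 without melanocyte arrays 1 and 3, and −0.0681 to 0.133 as single arrays were left out. The cause was not tested. The median difference of all genes was 0.231 as deposited between the models, −0.219 centred for iMet minus melanocytes, and −0.211 as deposited and −0.23 centred for iHRAS* minus melanocytes. Scaling moved the share of calls that were higher: 80.1% as deposited against 53.6% between the models, 33.8% centred against 46.6% for iMet minus melanocytes, and 35.6% as deposited and 34.2% centred against 46.0% for iHRAS* minus melanocytes. Myc and Mycn remained called under the deposited and centred scalings in the comparisons where they were called.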
